A study of Mus musculus with 18 samples.

Results

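Transcripts of 8 enzymes that make serine and pass its carbon into the folate pool were followed in mouse bone marrow-derived macrophages: Phgdh, Psat1, Psph, Shmt1, Shmt2, Mthfd1, Mthfd1l and Mthfd2. The members were chosen by gene symbol, and all 8 symbols were found among the 43309 genes of the expression table. The symbols were listed with values of these same 18 libraries already known, and the comparison that guided the list was not recorded. The tests below come from a fit over all genes and describe these libraries, with the choice of the 8 genes not independent of them.

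The study compared 3 genotypes of C57BL/6 mice, wild-type (WT), PGRN knockout (PGRN is progranulin, encoded by Grn) and Myeloid 14-3-3e knockout (14-3-3ε is encoded by Ywhae). Marrow cells were grown for 7 days in α-MEM with 10% serum and 10 ng/ml M-CSF, the growth factor that drives macrophage differentiation. They were then stimulated for 18 h, either with 100 ng/ml LPS and 20 ng/ml IFNy (M1) or with 20 ng/ml IL-4 (M2). Total RNA of 3 libraries in each of the 6 groups was sequenced, and no unstimulated group was analysed here. The labels give no age, no driver of the myeloid deletion and no statement that replicates came from separate animals, so p-values measure the spread between these libraries, which may be technical.

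Serine is made from the glycolytic intermediate 3-phosphoglycerate in 3 steps, by the dehydrogenase Phgdh, the aminotransferase Psat1 and the phosphatase Psph. Serine hydroxymethyltransferases, cytosolic Shmt1 and mitochondrial Shmt2, turn serine into glycine and load its carbon on tetrahydrofolate. Mthfd2 and Mthfd1l carry that carbon to formate inside mitochondria, and cytosolic Mthfd1 takes formate into the folate pool that feeds purine, thymidylate and methionine synthesis.

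All 8 genes are protein coding, on different strands and mostly different chromosomes of GRCm38. Phgdh lies at chr3:98313170-98339990, Psat1 at chr19:15904678-15947337, Psph at chr5:129765558-129787449, Shmt1 at chr11:60788104-60811718, Shmt2 at chr10:127517123-127522444 and Mthfd2 at chr6:83305691-83325908, all on the minus strand. Mthfd1 lies at chr12:76255298-76319803 and Mthfd1l at chr10:3973118-4167081, both on the plus strand. Phgdh has processed pseudogenes, the closest of them Gm7901, 98.75% identical over 1597 bases, which held reads equal to at most 2.18% of those of Phgdh in any library. The first 452 bases of the Psph locus are shared with exons of Cct6a, a chaperonin subunit gene on the plus strand (chr5:129786998-129787449). Cct6a averaged 6.34 times the normalized count of Psph, and because the sources used here do not say whether counting was strand-specific, reads in that stretch cannot be assigned to 1 gene. Shorter overlaps of 184 bases with Smcr8 and 32 bases with Ndufa4l2 exist at the ends of Shmt1 and Shmt2. Smcr8 averaged 10.6 times the normalized count of Shmt1, and Ndufa4l2 0.25 times that of Shmt2. The same limit holds for reads in these stretches.

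The promoter of Mthfd2 is shown because this gene alone was higher in M1 than in M2 of PGRN knockout cells. A window of the Phgdh promoter is shown because it held the only upstream match among the motifs searched. Both are RefSeq sequences on GRCm38.p6, minus strand; all 8 genes matched, with 9 promoters since Psat1 has an alternative start. The Mthfd2 sequence is the 250 bases before its RefSeq start (chr6:83317605-83317854), with its 7 CpG sites in capitals. The RefSeq starts of Mthfd2 and Psat1 lie well inside the gene spans given above. The outer ends of those 2 spans were therefore not searched for motifs. The Phgdh window (chr3:98339994-98340042) has in capitals a match to TGACNNNGC, the antioxidant response letters, on the opposite strand, beginning 53 bases before the start.
Mthfd2: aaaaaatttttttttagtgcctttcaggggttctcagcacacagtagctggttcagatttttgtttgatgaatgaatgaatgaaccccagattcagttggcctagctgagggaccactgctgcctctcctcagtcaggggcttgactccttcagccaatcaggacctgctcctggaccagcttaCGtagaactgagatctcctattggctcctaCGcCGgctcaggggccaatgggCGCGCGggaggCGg
Phgdh: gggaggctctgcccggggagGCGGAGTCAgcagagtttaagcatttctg

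For the 8 genes, 5 short motifs were searched on both strands of 300 bases, from 250 before to 50 after each start. TGATGNAA, the composite element of ATF4 with a C/EBP factor, was in none of the members' promoters and in 3.97% of all 32851 promoters. CACGTG (an E-box, 7.15% of all promoters), TTTGGCGC and TTTCCCGC (E2F forms, 0.514% and 1.07%) were likewise in none of them. TGACNNNGC, in 12.4% of all promoters, was found in Phgdh and, after the start, in Psph. A match or its absence describes the letters of this window only.

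Depth ranged from 5157638 to 105315616 reads and differed 20.4-fold, so low genes were measured less precisely in the shallow libraries; the members still had 26 to 9608 reads in every library. WT M1 replicate 1 was the shallowest library. WT M2 replicate 3 had 14.6% and WT M1 replicate 2 had 1.86% of reads on ribosomal RNA-like genes, against at most 0.216% elsewhere. Grn differed from WT by -8.24 (log2) in PGRN knockout M1 and -10.14 in M2, whereas Ywhae differed by only -0.72 and -0.85 in 14-3-3e knockout cells, so its transcript was lowered, not lost. Macrophage genes such as Adgre1 and Csf1r were abundant, at means of 1474 and 1105 CPM (counts scaled to a common library total). The 8 macrophage markers, all detected in every library, summed to 11406 to 19386 CPM in WT M1, 18712 to 22556 in PGRN knockout M1 and 8906 to 12489 in 14-3-3e knockout M1. In M2 they summed to 6847 to 7214, 14096 to 15641 and 3794 to 4650. No M2 library reached the M1 libraries of its genotype, and these sums did not overlap between genotypes in M2. Lyz2 had the highest mean of the 8 (7341 CPM) and weighs most in the sums. Against WT in M2, 50% of the 8 were higher and 0% lower in PGRN knockout (limma adjusted p below 0.05), beside 11.1% and 8.3% of all genes. In 14-3-3e knockout 0% were higher and 12.5% lower, beside 3.32% and 3.37% of all genes. Among other cell types, Cd3e (T cells) and Ly6g (neutrophils) reached at most 0.776 and 0.0917 CPM, but some markers of the same lists were well above 0. S100a9 reached 181 and Mpo 108 CPM (neutrophil list), Il7r 150 (T and NK list), Ighm 172 and Igkc 89.2 (B cell list). The 9 neutrophil markers summed to 103 to 391 CPM in WT, 42.8 to 184 in PGRN knockout and 69.9 to 207 in 14-3-3e knockout libraries. The 8 B cell markers summed to 110 to 288, 39 to 123.1 and 144 to 302 CPM in the same order. WT M1 replicate 1 was the highest M1 library for neutrophil markers (336 CPM) and the highest of its group for B cell markers (288). Several stromal genes were abundant, with Col1a1 and Col1a2 at means of 6046 and 5481 CPM, while Lum and Thy1 reached at most 5.23 and 5.21 CPM. The 12 stromal markers, among them collagens, summed to 17061 to 29301 CPM in WT, 28116 to 37955 in 14-3-3e knockout and 12248 to 16085 in PGRN knockout libraries. By group median these sums exceeded the macrophage marker sums in M1 and M2 of WT and 14-3-3e knockout. In PGRN knockout they were below them in both polarizations. The part of these marker levels in the results below was not tested. In bulk RNA, fewer cells of a type and less RNA per cell cannot be told apart.

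Phgdh, Psat1, Shmt1, Shmt2, Mthfd1 and Mthfd1l were lower in M1 than in M2 macrophages of every genotype, and Mthfd2 was lower in M1 of WT but higher in M1 of PGRN knockout cells. In WT cells 8 of 8 members were lower in M1 and 0 were higher (adjusted p below 0.05, limma over 21336 genes, the rule for every count below), where 20% of all genes tested were lower and 18.9% higher. In PGRN knockout cells 6 were lower, where 19.5% of all genes were, and 1 was higher, Mthfd2, where 18% were. In 14-3-3e knockout cells 6 were lower and 0 higher, with 14.4% and 15.6% of all genes called. The median log2 difference of the 8 members, M1 minus M2, was -1.06 in WT, -0.68 in PGRN knockout and -0.60 in 14-3-3e knockout cells. The medians over all genes tested were -0.04, -0.04 and 0.03. Scaling by library totals in place of the authors' factors shifted all genes by -0.17, -0.22 and -0.22 and took the share of calls that were higher from 48.5%, 48.1% and 52% to 34.2%, 30% and 29.9%.

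Between genotypes at most 5 members were called in any comparison, fewer than between M1 and M2 of any genotype. PGRN knockout against WT in M1 gave 2 higher (Psat1, Mthfd2) and 1 lower (Mthfd1l) member, beside 14.2% and 11.1% of all genes. In M2 the same contrast gave 5 lower and 0 higher, beside 8.3% and 11.1% of all genes. 14-3-3e knockout against WT gave 4 higher and 0 lower in M1, beside 12% and 9.31% of all genes. In M2 it gave 0 in either direction, beside 3.32% of all genes higher and 3.37% lower; limma also gave 0 members at an unadjusted p under 0.05, and 0 with voom on reads recovered from the table. Between the 2 knockouts in M1, 4 members were higher in 14-3-3e knockout cells and 1, Mthfd2, was lower, with 12.5% of all genes called in each direction. In M2, 4 were higher and 0 lower there, with 8.29% and 9.92% of all genes called. The knockout comparisons share the WT libraries of their polarization, so their values are set side by side and not compared for overlap. Under library totals the share of higher calls went from 56.3% to 39.4% and from 57.2% to 47.2% for PGRN knockout against WT in M1 and M2, and from 56.2% to 71% and from 49.7% to 79.1% for 14-3-3e knockout. Between the knockouts it went from 50.1% to 73.3% in M1 and from 45.5% to 70.3% in M2, and in the 14-3-3e interaction from 49.2% to 27%. With voom it was 42.3% for 14-3-3e knockout against WT in M1 and 33.3% in the 14-3-3e interaction. Against WT in M1, the 14-3-3e knockout count was 1 with only the groups compared in the fit and 7 without WT M1 replicate 1. The PGRN knockout count in M2 was 3 with thinned reads and 8 with voom.

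**Figure D1:**
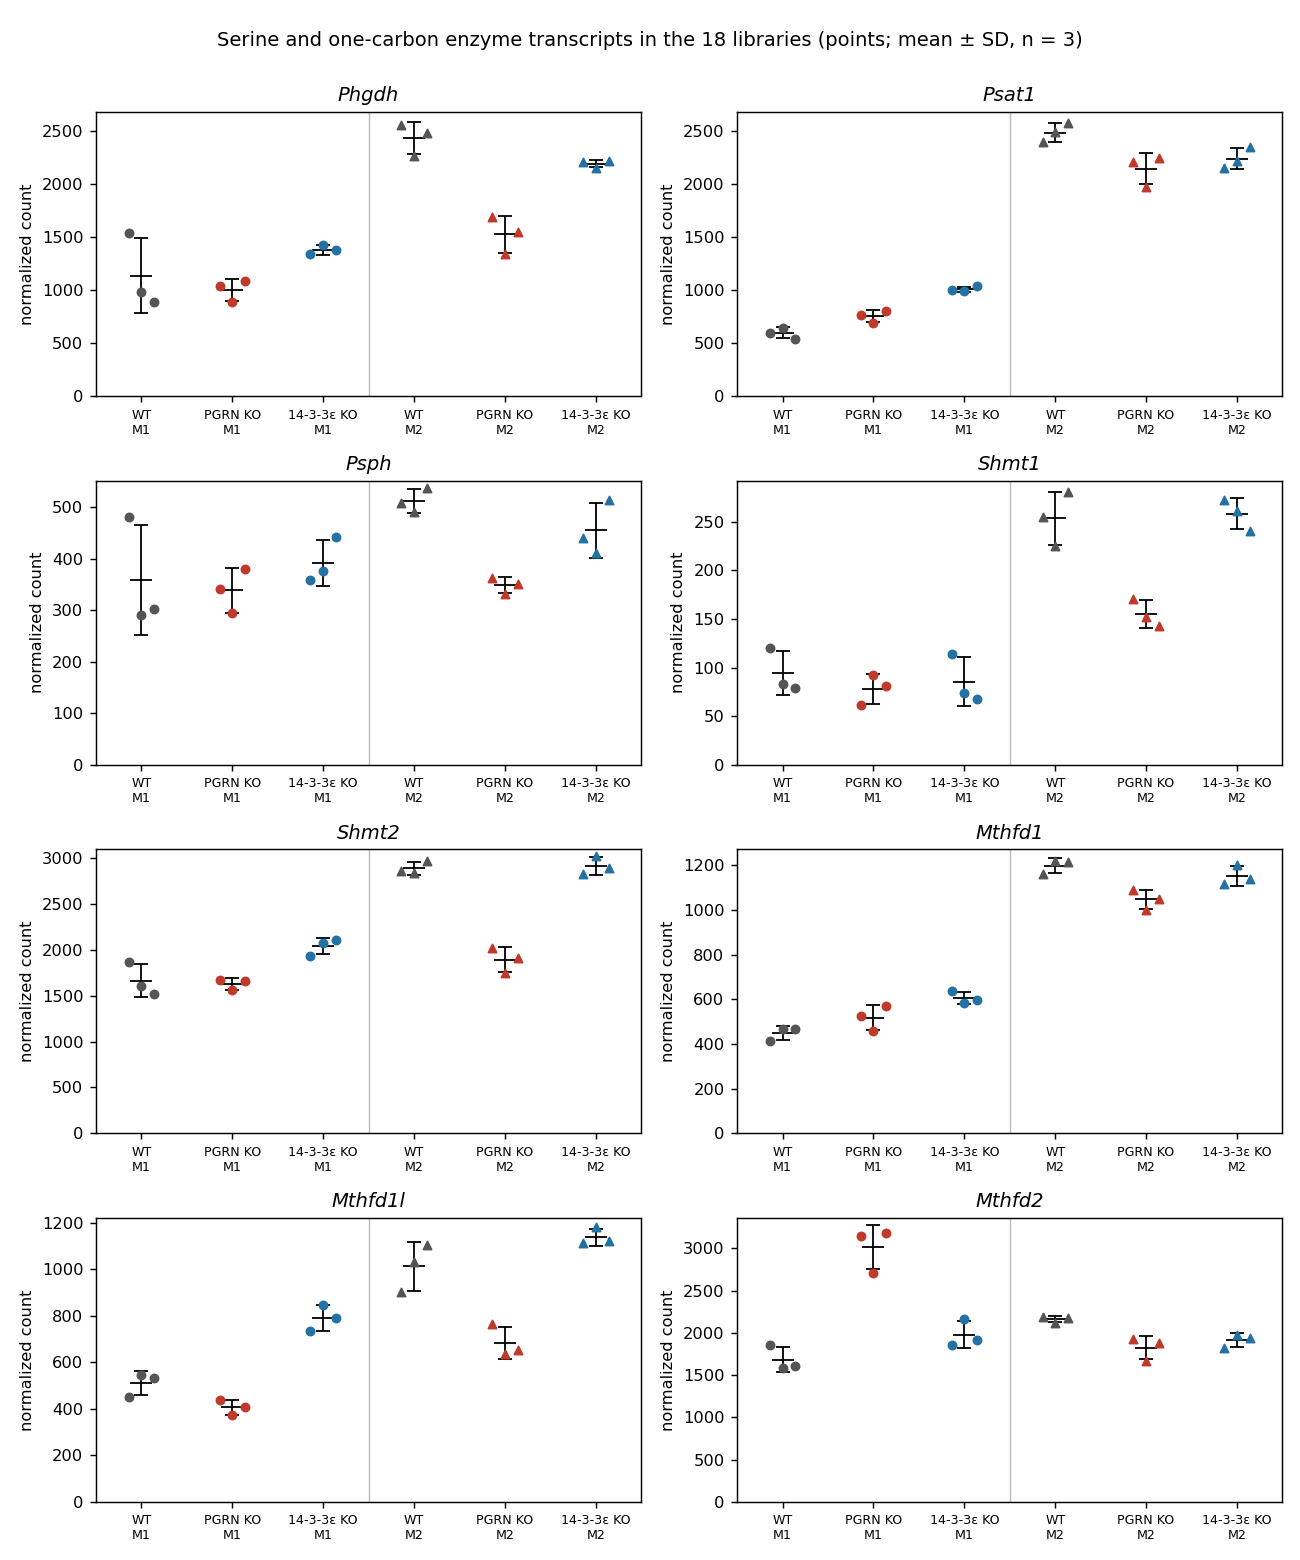
Normalized count (y axis, from 0) of each member in the 18 libraries, by genotype and polarization; circles are M1, triangles M2, and bars the mean ± SD of 3 libraries. Mthfd2 stands between 2714 and 3186 in PGRN knockout M1, above every other library, while the other members are highest in M2 groups.

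Phgdh, the enzyme that commits 3-phosphoglycerate to serine, fell in M1 in all genotypes. Its normalized counts (reads scaled by the authors' library factor) in WT M1 were 1538, 983 and 887, and in WT M2 2559, 2267 and 2478. PGRN knockout libraries had 1037, 886 and 1082 in M1 and 1692, 1342 and 1543 in M2. The 14-3-3e knockout libraries had 1337, 1424 and 1373 in M1 and 2204, 2150 and 2218 in M2. M1 and M2 libraries did not overlap within any genotype, and WT M1 replicate 1 stood well above its group. The log2 difference, M1 minus M2, on log2(normalized count + 1), was -1.14 ± 0.15 (SE) in WT, with a limma adjusted p of 8.84e-06. It was -0.61 ± 0.15 in PGRN knockout (adjusted p 0.00355) and -0.67 ± 0.15 in 14-3-3e knockout cells (0.00208). PGRN knockout M2 was lower than WT M2 by -0.68 ± 0.15 (adjusted p 0.00397), while in M1 those groups overlapped (-0.14 ± 0.15). In M1, 14-3-3e knockout overlapped WT (0.32 ± 0.15, adjusted p 0.135). Without WT M1 replicate 1 this difference was 0.56, with an adjusted p of 0.0021.

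Psat1, which transfers the amino group, had the steepest polarization difference of the 8 in WT cells. WT M1 libraries had normalized counts of 597, 646 and 543 and WT M2 libraries 2395, 2489 and 2575. PGRN knockout gave 769, 692 and 805 in M1 and 2209, 1975 and 2245 in M2. 14-3-3e knockout gave 997, 992 and 1036 in M1 and 2154, 2219 and 2347 in M2. The M1 groups stood in a clear order, WT lowest and 14-3-3e knockout highest, with no overlap between neighbours, whereas in M2 the 2 knockouts overlapped just under WT. The M1 minus M2 log2 difference was -2.06 ± 0.08 in WT (adjusted p 1.65e-12), a 4.18-fold lower level. It was -1.50 ± 0.08 in PGRN knockout and -1.15 ± 0.08 in 14-3-3e knockout cells (adjusted p 1.13e-10 and 4.86e-09). Against WT in M1, Psat1 rose by 0.34 ± 0.08 in PGRN knockout (adjusted p 0.00468) and by 0.76 ± 0.08 in 14-3-3e knockout cells (1.52e-05). When the other groups were left out of the fit, the PGRN knockout call was lost (adjusted p 0.115), as it was with library totals (0.0595). In M2 the differences from WT were -0.22 ± 0.08 (adjusted p 0.0696) and -0.15 ± 0.08 (0.272).

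Psph, which removes the phosphate, had the least certain changes, and its reads may include some of Cct6a. Counts in WT were 482, 291 and 302 in M1 and 508, 490 and 537 in M2. In PGRN knockout cells they were 342, 294 and 379 in M1 and 363, 332 and 351 in M2, so these groups overlapped. In 14-3-3e knockout cells they were 358, 376 and 442 in M1 and 441, 411 and 515 in M2, which also overlapped. The WT difference, M1 minus M2, was -0.55 ± 0.16 (adjusted p 0.0104). It rested on each of the lower WT M1 libraries: the adjusted p was 0.0516 without replicate 2 and 0.0535 without replicate 3. It was 0.0873 with only the groups compared in the fit and 0.118 without the 2 libraries rich in ribosomal RNA. PGRN knockout M2 was lower than WT M2 by -0.55 ± 0.16 (adjusted p 0.0213), a call lost without WT M2 replicate 1 (0.0568) or 3 (0.0675) and without PGRN knockout M2 replicate 2 (0.0678) or 3 (0.0596). Over the 27 alternative fits it was kept in 22, with adjusted p of up to 0.0731. Cct6a differed by -0.69 ± 0.06 between WT M1 and M2 and by -0.20 ± 0.06 between PGRN knockout and WT in M2, both called (adjusted p 1.76e-07 and 0.0414).

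Shmt1, the cytosolic serine hydroxymethyltransferase, was the scarcest member, at 0.839 to 3.65 RPKM (CPM per kilobase of exon) as group means. Its normalized counts in WT were 120, 82.6 and 79.2 in M1 and 255, 226 and 280 in M2. In PGRN knockout cells they were 61.4, 92.1 and 80.9 in M1 and 170, 152 and 143 in M2. In 14-3-3e knockout cells they were 114, 73.9 and 67.7 in M1 and 272, 262 and 241 in M2. The 3 M1 groups overlapped one another, and each was below its M2 group. M1 minus M2 was -1.44 ± 0.20 in WT, -0.996 ± 0.204 in PGRN knockout and -1.62 ± 0.20 in 14-3-3e knockout cells (adjusted p 2.18e-05, 8.32e-04 and 7.63e-06). PGRN knockout M2 was lower than WT M2 by -0.70 ± 0.20 (adjusted p 0.0221). That call was lost without PGRN knockout M2 replicate 2 (0.0587) or 3 (0.086) and without WT M2 replicate 1 (0.0642) or 3 (0.0798). Over the 27 alternative fits it was kept in 21, with adjusted p of up to 0.194. Reads of Shmt1 may include some of Smcr8. Against WT, Smcr8 was higher in PGRN knockout by 0.83 ± 0.11 in M1 and 0.66 ± 0.11 in M2 (limma adjusted p 6.21e-05 and 5.95e-04). Between M1 and M2 Smcr8 did not pass in any genotype.

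Shmt2, its mitochondrial counterpart, was among the most abundant members per length, at 21.9 to 51.5 RPKM. Counts in WT were 1868, 1608 and 1524 in M1 and 2866, 2837 and 2971 in M2. In PGRN knockout cells they were 1674, 1559 and 1660 in M1 and 2022, 1746 and 1916 in M2. In 14-3-3e knockout cells they were 1939, 2081 and 2105 in M1 and 2825, 3023 and 2901 in M2. PGRN knockout M2 stood apart from the other M2 groups, close above its own M1 libraries. M1 minus M2 was -0.80 ± 0.08 in WT, -0.21 ± 0.08 in PGRN knockout and -0.51 ± 0.08 in 14-3-3e knockout cells (adjusted p 3.29e-07, 0.0408 and 6.32e-05). The PGRN knockout difference did not pass when reads were thinned to the shallowest library (-0.11, adjusted p 0.511). It also failed without any of the 3 M1 libraries or without M2 replicate 1 or 3 of that genotype (adjusted p 0.0613, 0.138, 0.067, 0.174 and 0.105), and marginally without 14-3-3e knockout M1 replicate 2 or M2 replicate 3 (0.0505 and 0.0513). PGRN knockout M2 was lower than WT M2 by -0.61 ± 0.08 (adjusted p 4.52e-05), while in M1 those genotypes overlapped (-0.03 ± 0.08, adjusted p 0.855). In M1, 14-3-3e knockout was higher than WT by 0.30 ± 0.08 (adjusted p 0.0151). That call was lost without WT M1 replicate 3 (0.0574) and without 14-3-3e knockout M1 replicate 2 (0.0577) or 3 (0.0527). Over the 27 alternative fits it was kept in 22, with adjusted p of up to 0.162.

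Mthfd1, the cytosolic enzyme with 3 activities that takes up formate, followed Psat1 closely. Counts in WT were 415, 467 and 466 in M1 and 1162, 1217 and 1216 in M2. PGRN knockout gave 526, 458 and 569 in M1 and 1089, 1001 and 1050 in M2. The 14-3-3e knockout gave 636, 582 and 597 in M1 and 1117, 1200 and 1137 in M2. No M1 library reached an M2 library in any genotype. M1 minus M2 was -1.41 ± 0.08 in WT, -1.02 ± 0.08 in PGRN knockout and -0.93 ± 0.08 in 14-3-3e knockout cells (adjusted p 4.28e-10, 2.9e-08 and 1.25e-07). In M1 it was higher than WT in 14-3-3e knockout cells, by 0.43 ± 0.08 (adjusted p 0.00267), and overlapped WT in PGRN knockout cells (0.20 ± 0.08, adjusted p 0.0899, or 0.28 and 0.0201 without PGRN knockout M1 replicate 2).

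Mthfd1l, the mitochondrial enzyme that releases formate, was ordered by genotype in both polarizations. Counts in WT were 450, 547 and 533 in M1 and 901, 1031 and 1105 in M2. PGRN knockout libraries had 436, 371 and 410 in M1 and 763, 636 and 651 in M2. The 14-3-3e knockout libraries had 735, 848 and 791 in M1 and 1112, 1181 and 1122 in M2. PGRN knockout was lowest and 14-3-3e knockout highest in each polarization, with no overlap between neighbours. M1 minus M2 was -0.99 ± 0.10 in WT, -0.75 ± 0.10 in PGRN knockout and -0.53 ± 0.10 in 14-3-3e knockout cells (adjusted p 6.75e-07, 1.61e-05 and 7.02e-04). Against WT in M2, PGRN knockout was lower by -0.57 ± 0.10 (adjusted p 9.89e-04) and 14-3-3e knockout differed by 0.17 ± 0.10 (0.333). In M1, 14-3-3e knockout was higher than WT by 0.63 ± 0.10 (adjusted p 8.69e-04). PGRN knockout M1 was lower by -0.33 ± 0.10 (adjusted p 0.0271), a call lost without WT M1 replicate 2 (0.077) or 3 (0.0781) and without PGRN knockout M1 replicate 2 (0.105) or 3 (0.0616). With voom its adjusted p was 0.0684. Over the 27 alternative fits this call was kept in 20, with adjusted p of up to 0.166. The medians of the stromal marker sums had the same genotype order: 13345, 24716 and 33009 CPM in M1 and 13344, 23558 and 31804 CPM in M2 for PGRN knockout, WT and 14-3-3e knockout. The macrophage marker medians had the reverse order, 21233, 16502 and 9706 CPM in M1 and 14857, 7049 and 4230 CPM in M2. Those sums weigh Lyz2 most (mean 7341 CPM), and the single markers did not all follow the order. Of the 8, 25% were higher and 37.5% lower in 14-3-3e knockout than in WT M1, beside 12% and 9.31% of all genes.

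Mthfd2, the mitochondrial dehydrogenase and cyclohydrolase, was the only member higher in M1 than in M2 of PGRN knockout cells. Against WT, its PGRN knockout difference had the sign of Psat1 and Mthfd1 in M1 and of all other members in M2. Counts in WT were 1855, 1584 and 1609 in M1 and 2185, 2119 and 2182 in M2. In PGRN knockout cells they were 3143, 2714 and 3186 in M1 and 1927, 1672 and 1876 in M2. In 14-3-3e knockout cells they were 1860, 2164 and 1911 in M1 and 1825, 1981 and 1943 in M2. PGRN knockout M1 was above all 15 other libraries. The 14-3-3e knockout M1 and M2 groups overlapped. M1 minus M2 was -0.36 ± 0.09 in WT (adjusted p 0.00271), 0.72 ± 0.09 in PGRN knockout (3.56e-06) and 0.04 ± 0.09 in 14-3-3e knockout cells (0.785). The last of these turned to -0.18 when libraries were scaled by their totals (adjusted p 0.158). In M1, PGRN knockout exceeded WT by 0.84 ± 0.09 (adjusted p 5.26e-06), or 1.79-fold, and remained called in all 27 alternative fits, at 0.74 to 0.91. In M2 the PGRN knockout and WT libraries did not overlap, at a difference of -0.25 ± 0.09 that did not pass (adjusted p 0.0563), but did with voom (0.0358) or without WT M1 replicate 1 (0.0241) or 2 (0.0467) or PGRN knockout M1 replicate 2 (0.0436). In 14-3-3e knockout M1 the difference from WT was 0.23 ± 0.09 (adjusted p 0.0647).

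The 2 knockouts were also set against each other. In M1, 14-3-3e knockout cells had Mthfd1l higher by 0.96 ± 0.10 and Mthfd2 lower by -0.61 ± 0.09 than PGRN knockout cells (adjusted p 3.29e-06 and 5.8e-05). Psat1 (0.42 ± 0.08), Shmt2 (0.32 ± 0.08) and Phgdh (0.46 ± 0.15) were higher as well (adjusted p 8.49e-04, 0.00555 and 0.0298). The Phgdh call in M1 was lost without any 1 of the 3 14-3-3e knockout M1 libraries (0.0584, 0.0863 and 0.072) or PGRN knockout M1 replicate 1 (0.0581) or 2 (0.123). In M2, Mthfd1l (0.74 ± 0.10), Shmt2 (0.62 ± 0.08), Shmt1 (0.73 ± 0.20) and Phgdh (0.53 ± 0.15) were higher in 14-3-3e knockout cells (adjusted p 6.61e-05, 2.43e-05, 0.0175 and 0.0188). The calls of Shmt1 and Phgdh in M2 were both lost without 14-3-3e knockout M2 replicate 1 (0.0626 and 0.0535) or PGRN knockout M2 replicate 3 (0.0755 and 0.0515), leaving 2. Shmt1 was also lost without 14-3-3e knockout M2 replicate 2 (0.0519), and Phgdh without 14-3-3e knockout M2 replicate 3 (0.0587) or PGRN knockout M2 replicate 2 (0.0851). With thinned reads Shmt2 in M1 (0.12) and Shmt1 in M2 (0.249) did not pass. Mthfd1 in M1 (0.23 ± 0.08, adjusted p 0.0522) passed without WT M1 replicate 1 (0.026) or 2 (0.0459) or PGRN knockout M1 replicate 3 (0.0226), and Psph in M2 (0.38 ± 0.16, adjusted p 0.123) without WT M1 replicate 1 (0.017).

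**Figure D2:**
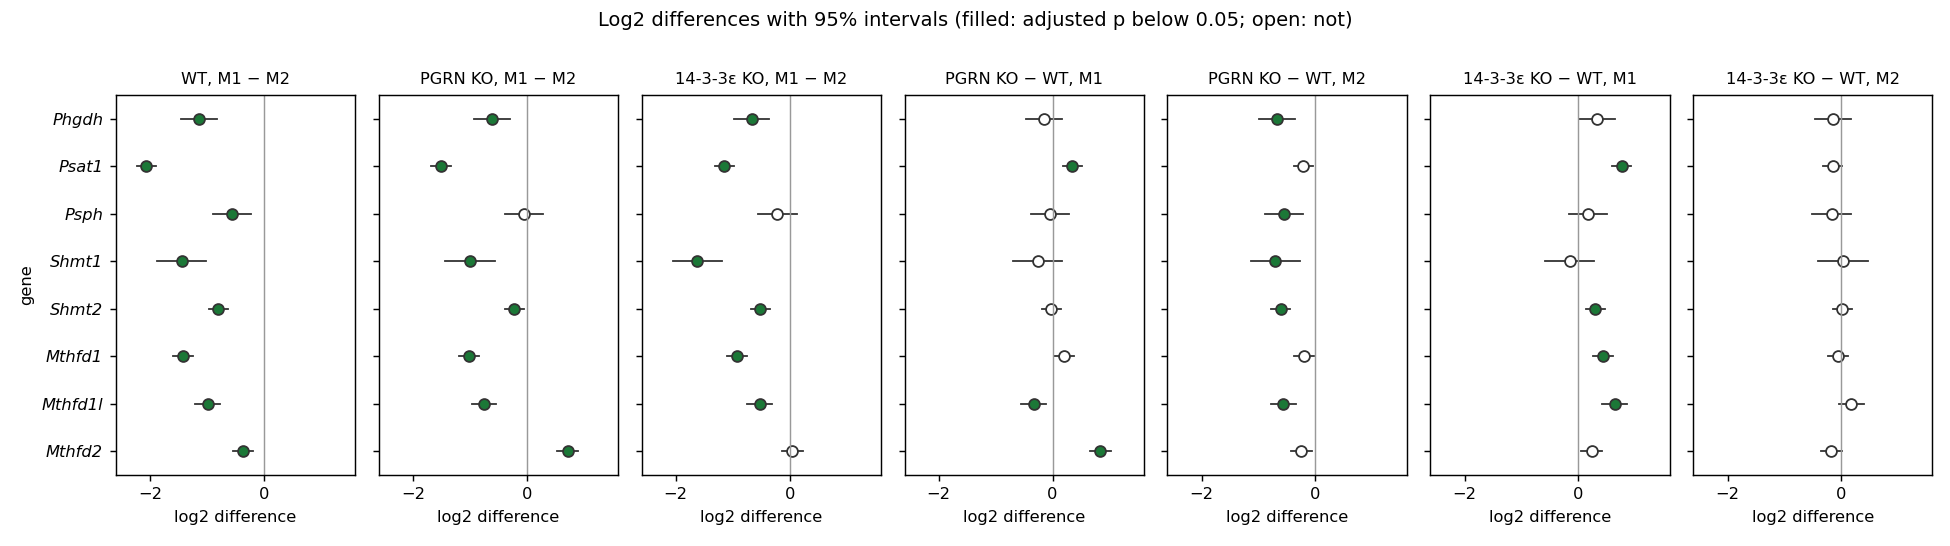
Log2 difference of each member with its 95% interval (x axis) in the M1 minus M2 comparison of each genotype and in each knockout minus WT comparison; filled points passed an adjusted p of 0.05. Mthfd2 is at 0.72 in PGRN knockout M1 minus M2, on the other side of 0 from the called members beside it, and no point is filled for 14-3-3e knockout minus WT in M2.

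Whether a knockout difference itself changed with polarization was tested as an interaction, the difference from WT in M1 minus that in M2. For PGRN knockout, 3 members passed in the positive direction, where 0.469% of all genes tested did, and 0 in the negative direction, where 0.783% did. They were Mthfd2 at 1.09 ± 0.12 (adjusted p 3.98e-04), Shmt2 at 0.59 ± 0.11 (0.0171) and Psat1 at 0.56 ± 0.11 (0.0228). Mthfd2 passed in all 27 alternative fits, at 1.03 to 1.16. Shmt2 did not pass with only the groups compared in the fit (0.0702) or without the ribosomal RNA-rich libraries (0.0563). Psat1 did not pass in 8 of the 27, among them those without PGRN knockout M1 replicate 1 (0.0631) or 3 (0.0663), without PGRN knockout M2 replicate 2 (0.0664) and without WT M2 replicate 2 (0.0518) or 3 (0.0561). The other 5 members did not pass, with interactions of 0.24 to 0.53 (adjusted p 0.119 to 0.55), so a call in only 1 polarization is not a tested difference for them. For 14-3-3e knockout only Psat1 passed, at 0.91 ± 0.11 (adjusted p 0.00177), where 0.141% of all genes passed in the positive and 0.145% in the negative direction. The other 7 members did not pass (adjusted p 0.112 to 0.888). WT M1 replicate 1 was the highest library of its group for Phgdh, Psph, Shmt1, Shmt2 and Mthfd2. Without it, the number of members passing was 5 for PGRN knockout and 2 for 14-3-3e knockout. Phgdh was added each time (0.77 and 0.71, adjusted p 0.00593 and 0.0335).

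Ratios of reads per kilobase within a library need no scaling between libraries and were not tested. Shmt2 over Shmt1, Mthfd2 over Mthfd1 and Mthfd1l over Mthfd1 set a mitochondrial against a cytosolic enzyme, while Mthfd2 and Mthfd1l are both mitochondrial. Shmt2 over Shmt1 was 13 to 16.8 in the M2 libraries and 19.4 to 38.8 in the M1 libraries, with no overlap. The ratio of Mthfd2 to Mthfd1l was 9.46 ± 0.38 (SD, n = 3) in PGRN knockout M1, against 4.25 ± 0.86 in WT M1 and 3.18 ± 0.09 in 14-3-3e knockout M1. In M2 it was 3.41 ± 0.23, 2.74 ± 0.31 and 2.14 ± 0.06 for PGRN knockout, WT and 14-3-3e knockout. The lowest PGRN knockout M1 library had 9.17, above the highest of any other group, 5.24. Mthfd2 over Mthfd1 was also highest in PGRN knockout M1, at 7.43 ± 0.26 against 4.80 ± 0.78 in WT M1. In M2 PGRN knockout, WT and 14-3-3e knockout had 2.22, 2.30 and 2.12. Mthfd1l over Mthfd1 went the other way and was lowest in PGRN knockout. It was 0.79 ± 0.06 in PGRN knockout M1, 1.14 ± 0.04 in WT M1 and 1.31 ± 0.15 in 14-3-3e knockout M1. The M2 values were 0.65 ± 0.04, 0.84 ± 0.07 and 0.990 ± 0.006 in the same order.

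**Figure D3:**
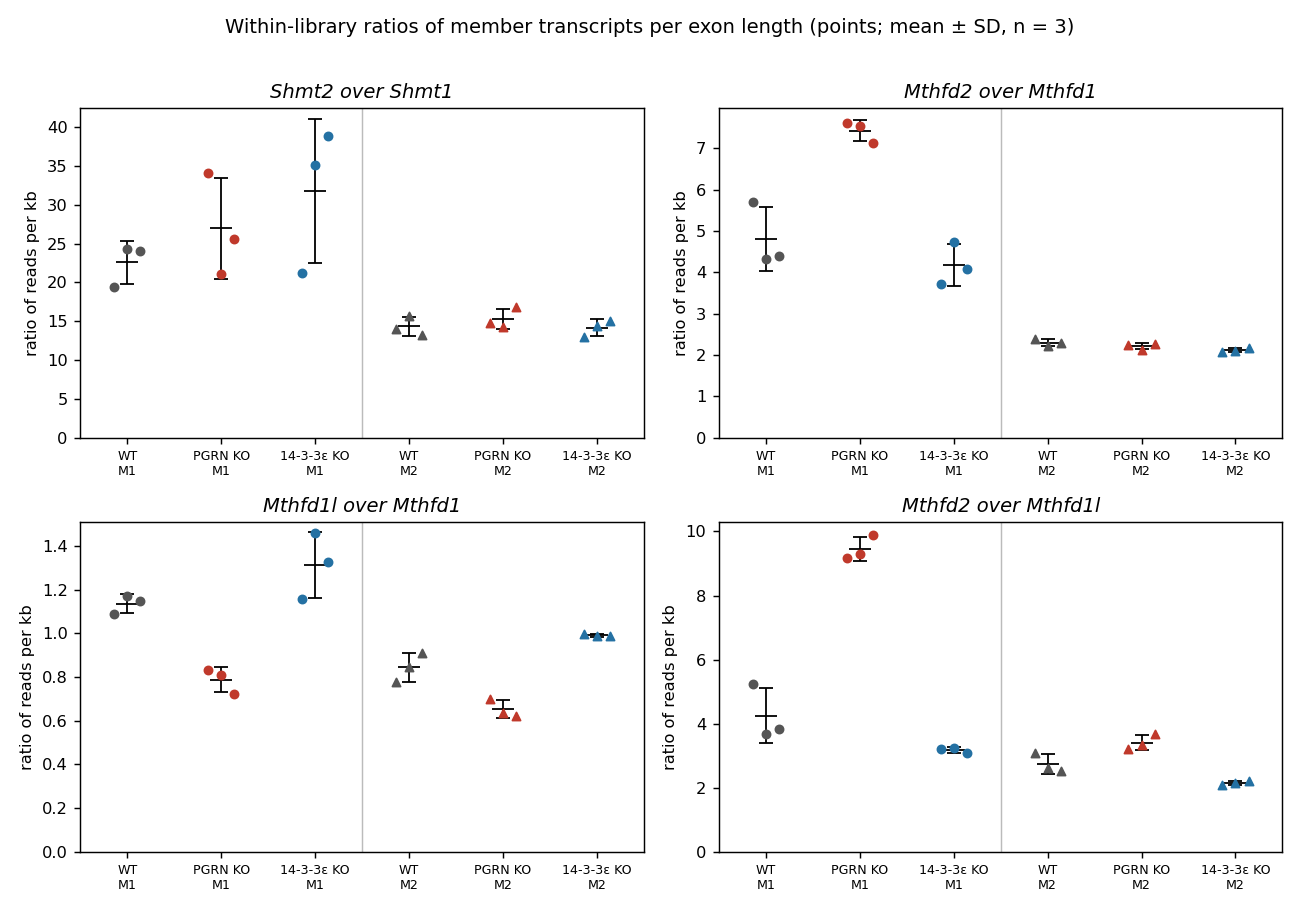
Ratio of reads per kilobase of exon (y axis, from 0) for 4 pairs of members in each library, with mean ± SD of 3 libraries per group. Mthfd2 over Mthfd1l lies at 9.17 or above in PGRN knockout M1 and at 5.24 or below in the 15 other libraries.

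Across the 18 libraries, Phgdh, Shmt2, Psat1, Mthfd1, Shmt1 and Mthfd1l had Pearson correlations of log2 values from 0.757 to 0.991. These points share polarization, genotype and depth, so the correlations are a description. Pairs of these genes did not all move together within a polarization. Over the 9 M2 libraries they correlated at 0.53 to 0.96, and over the 9 M1 libraries at -0.29 to 0.91. With group means removed, the range was -0.47 (Shmt1 with Mthfd1l) to 0.89 (Phgdh with Shmt2). Mthfd2 correlated with the other 7 members at -0.36 to 0.04 over all 18 libraries. Over the 9 M2 libraries alone its correlations were 0.53 to 0.93, and over the 9 M1 libraries -0.51 to 0.22. After group means were removed they were -0.03 to 0.82, the highest with Shmt2 (0.82) and Phgdh (0.78). Among 10386 genes compared, Psat1 was most like its fellow member Mthfd1 (0.991), followed by Idh3a and Tsr1, and Mthfd1 was most like Psat1, then Eif3l and the purine synthesis enzyme Atic. Phgdh was most like Sae1 (0.966), then Arhgef39 and Shmt2. Shmt2 was most like Phgdh, then Spc24 and Arhgef39. Shmt1 was most like Dnajc9 (0.977), Cdca3 and Nup85, Mthfd1l like Kifc3 (0.974), Impdh1 and Uba2, and Psph like Pck2 (0.907), Asrgl1 and Phgdh. The 3 genes most like Mthfd2 were all cytosolic aminoacyl-tRNA synthetases, Cars (0.919), Aars (0.874) and Sars (0.873). Each of them was higher in PGRN knockout M1 than in WT M1, by 0.38 ± 0.07, 0.59 ± 0.07 and 0.37 ± 0.09 (adjusted p 7.87e-04, 3.31e-05 and 0.00556), in a comparison that the likeness itself draws on.

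**Figure D4:**
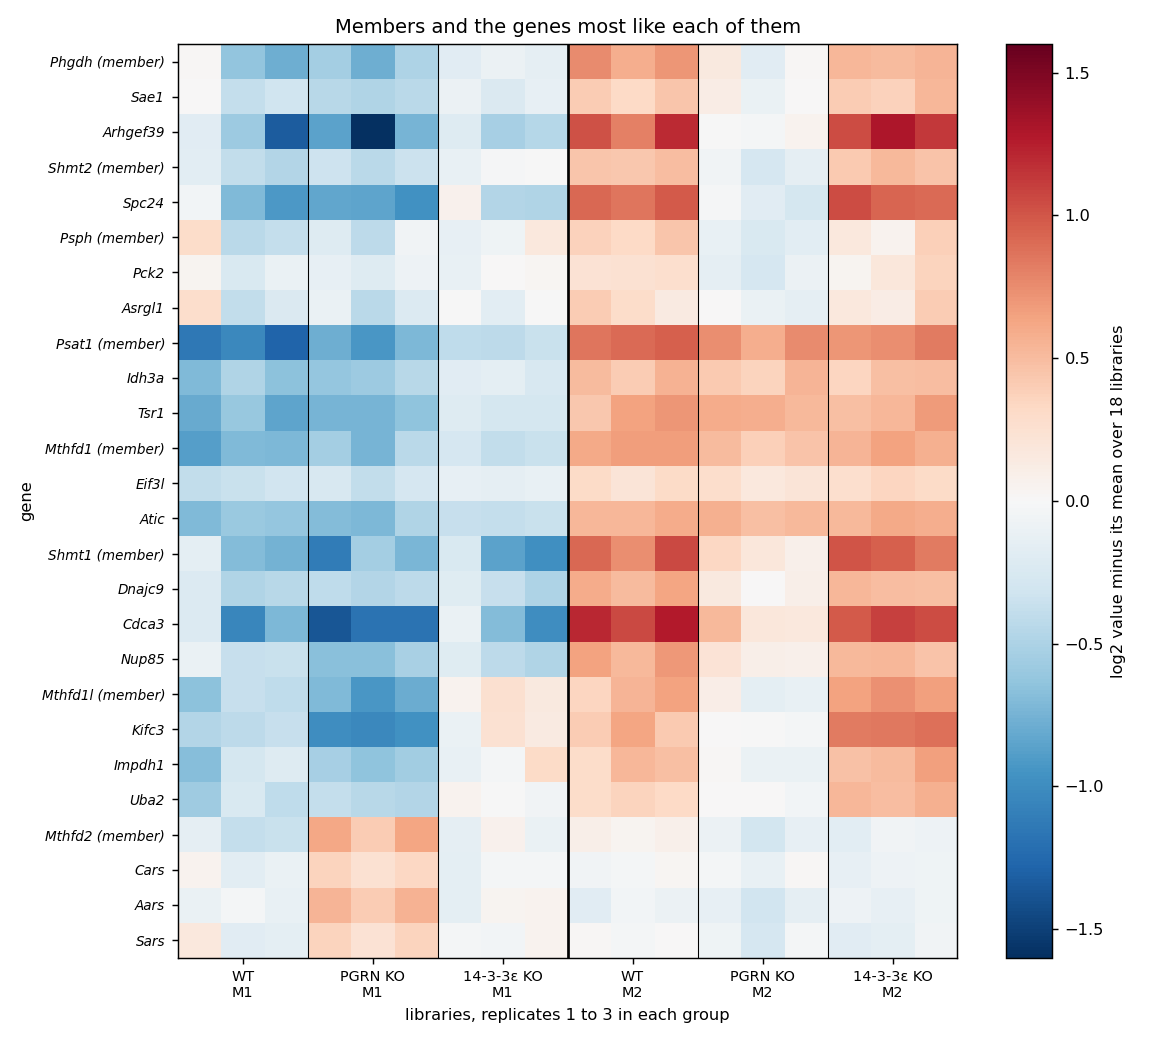
Log2 value minus its mean over 18 libraries (color) for the 8 members and the 3 genes most like each, with libraries in columns by group. Cars, Aars and Sars share with Mthfd2 the raised values in the 3 PGRN knockout M1 libraries, while Psat1 and Mthfd1 are below their mean in all 9 M1 libraries.

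The genes around the pathway were taken from lists that were chosen with earlier results known. Purine and thymidylate synthesis, which uses one-carbon units, followed the members: 13 of 13 genes were lower in M1 than in M2 in each of the 3 genotypes, with medians of -1.16, -1.02 and -0.82. Atic, Paics, Adss and Gart differed by -1.19, -1.18, -1.16 and -1.05 in WT. Genes of S phase and proliferation did so too, with 17 of 18 lower and 1 (Mycn) higher in WT cells. PGRN knockout cells had 16 lower and 1 higher, and 14-3-3e knockout cells 17 lower and 1 higher. Beside these lists, 20%, 19.5% and 14.4% of all genes were lower in M1 of WT, PGRN knockout and 14-3-3e knockout cells. The shares higher were 18.9%, 18% and 15.6%. The summed level of the S-phase genes was 692 to 1057 CPM in M1 and 1716 to 2717 in M2 libraries, and its part in the members' differences was not tested. In M2, S-phase genes were lower in PGRN knockout than in WT for 7 of 18 (38.9%, Rrm1 by -0.54, Cdk1 by -0.80), and 0 were higher. Of all genes, 8.3% were lower and 11.1% higher there.

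Folate enzymes were split. In WT, 4 of 15 genes were higher and 6 lower in M1 (26.7% and 40%, beside 18.9% and 20% of all genes tested). The folate dehydrogenase Aldh1l1 rose by 0.98 ± 0.11. Thymidylate synthase Tyms fell by -1.51 ± 0.13 and the mitochondrial folate carrier Slc25a32 by -0.99 ± 0.11. PGRN knockout also had 4 higher and 6 lower, beside 18% and 19.5% of all genes. In the methionine cycle 7 of 12 genes tested (58.3%) were lower in WT M1 and 0 higher, led by Ahcy (-1.31) and Mat2a (-0.75). Of the glycine cleavage genes, Gcsh (-0.92) and Dld (-0.38) were lower and Amt (1.37) higher in WT M1, with Gldc not passing. Of 12 serine and glycine transport and use genes tested, 5 (41.7%) were lower in WT M1, among them the mitochondrial serine carrier Sfxn1 (-0.86) and the amino acid transporter Slc1a5 (-0.91), and 2 (16.7%, near the share of all genes) were higher, among them Sptlc2 (0.43). Of the 6 glycolysis genes around 3-phosphoglycerate 2 were higher in WT M1 (33.3%, beside 18.9% of all genes), Pkm (0.56) and Pgk1 (0.64), and 0 lower.

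ATF4 is a stress-induced activator whose known targets include serine synthesis enzymes and tRNA synthetases. Against WT in M1, 7 of 20 genes of its list were higher in PGRN knockout cells and 2 lower (35% and 10%, beside 14.2% and 11.1% of all genes), with Sesn2 at 0.59 ± 0.08, Atf3 at 0.80 ± 0.14 and Nars at 0.39 ± 0.07 (adjusted p 8.21e-05, 4.98e-04 and 6.89e-04). In M2, 2 were higher and 9 lower (10% and 45%, beside 11.1% and 8.3% of all genes), among the latter Eif4ebp1 (-0.79), Nupr1 (-1.12) and Slc7a5 (-0.69). The PGRN interaction passed for 5 of the 20 (25%), all positive, beside 0.469% of all genes in that direction. It was also called and positive for Mthfd2, Shmt2 and Psat1. Of these, Mthfd2 and Psat1 were higher than WT in M1 (0.84 and 0.34). Shmt2 overlapped WT in M1 (-0.03) and was lower in M2 (-0.61). The part of ATF4 in the members' differences was not tested, and its list was chosen with earlier results known. The median interaction over the 20 genes was 0.42, beside 0.52 over the 8 members and 0.01 over all genes tested. Against WT in M1, 14-3-3e knockout cells had 3 of these genes higher, such as Slc7a5 (0.72), and 4 lower, such as Ddit3 (-0.67), shares of 15% and 20% that are near or above the 12% and 9.31% of all genes. There, 7 of 13 purine and thymidylate genes were higher and 0 lower.

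**Figure D5:**
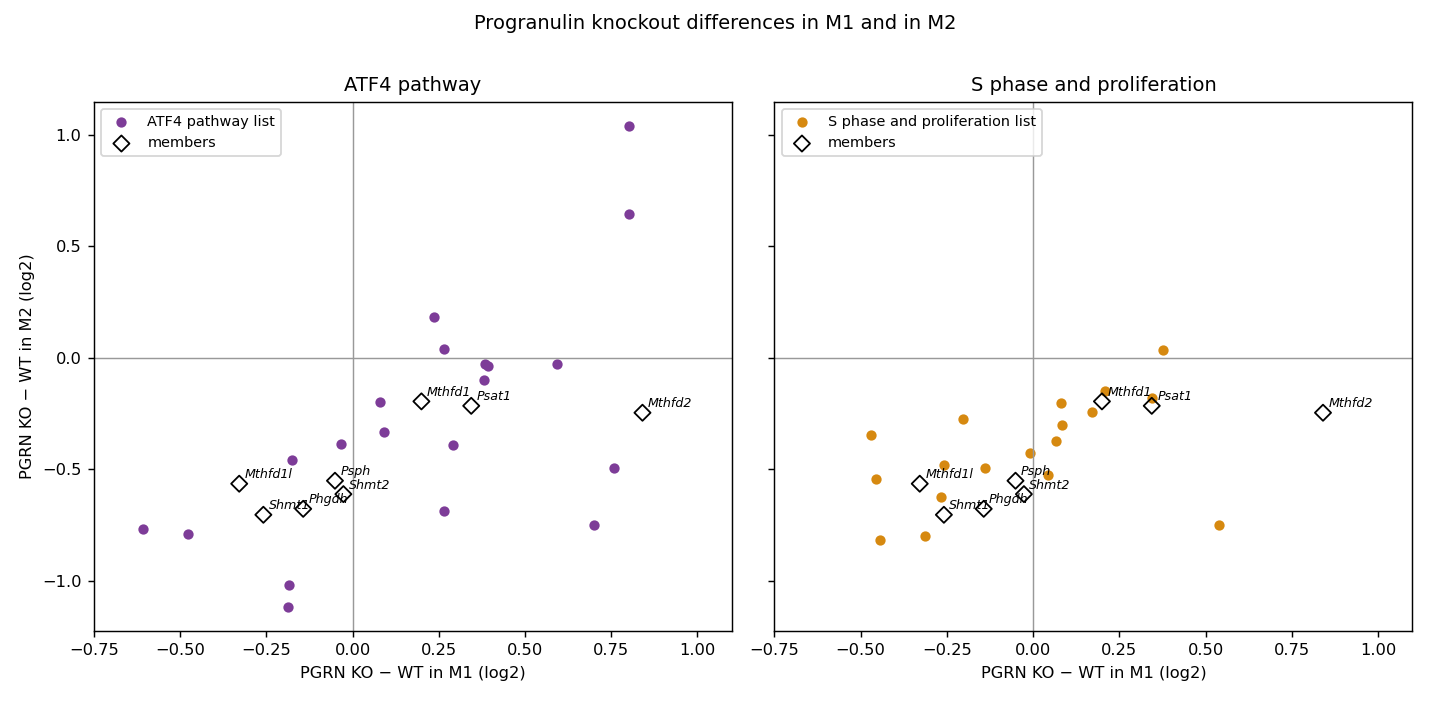
PGRN knockout minus WT (log2) in M1 (x axis) against M2 (y axis) for the 8 members (open diamonds) beside the ATF4 pathway list (left) and the S phase and proliferation list (right); the axes use different libraries. All 8 members lie below 0 in M2, from -0.70 to -0.20, and in M1 they spread from -0.33 to 0.84, with Mthfd2 farthest right.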

How the data were processed

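RNA of 18 libraries, 3 in each of 6 groups, was analysed from 1 table. The authors deposited log2(normalized count + 1); per the submitters' processing notes the tools were STAR, RSEM 1.3.1 and DESeq2, with a build (GRCh38) that does not match the mouse gene IDs and was not used. GENCODE M21 (GRCm38) held 42425 of the 43309 gene IDs. In each library the values turn back into whole reads, for 100% of genes within 0.1 read; these gave depths of 5157638 to 105315616 reads, CPM and RPKM. The planned test for normalized values was used: limma 3.58.1 (trend, robust; R 4.3.3) on log2(normalized count + 1), 1 fit of 6 groups and 11 comparisons, Benjamini-Hochberg adjustment over 21336 genes that reached a normalized count of 1 in 3 or more libraries, threshold 0.05. The procedure was tested on simulated data. Pseudogenes were compared with blastn 2.17.0.

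Some genes of the lists are not reported here. Same-numbered M1 and M2 libraries of 14-3-3e knockout deviated together from their group means (r of 0.53, 0.40 and 0.43), which no other pair of groups did in all 3 numbers; the labels do not say why. The members and lists were chosen with earlier results of these data known. Named genes are the 8 members, Grn and Ywhae, up to 4 genes of each list with the smallest p in a comparison, the 3 genes most correlated with each member among genes with a mean of at least 5 CPM, and genes whose exons overlap a member. Alternatives were a pseudocount of 0.1, other filters, only the groups compared, a replicate block, library totals, voom on recovered reads, thinned reads, leaving out both ribosomal RNA-rich libraries, and leaving out each library.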

Additional observations from a re-analysis of the deposited data

Results flagged for a closer look

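An interaction past the threshold (limma, adjusted over all genes) means that the knockout difference from WT was not the same in M1 and in M2. For PGRN knockout, M1 minus M2, those of the members were Mthfd2 at 1.09, Shmt2 at 0.59 and Psat1 at 0.56, and those of the ATF4 list Chac1 at 1.45, Trib3 at 1.25, Slc7a5 at 0.95, Sesn2 at 0.62 and Nars at 0.43 (adjusted p 0.015, 0.0348, 0.00974, 0.0171 and 0.0439). For 14-3-3e knockout, Psat1 at 0.91 was the 1 member that passed, and 0 genes of the ATF4 list did.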

How the results depend on the processing

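Of 2392 values of single members under the alternatives, 2274 kept their direction and side of the threshold, 63 lost and 32 gained the call, and 23 changed sign, with adjusted p of at least 0.158. With only the groups compared in the fit, called genes went from 8303 to 5202 (WT M1 against M2), 5399 to 2234 (PGRN knockout against WT in M1; members 3 to 1), 4541 to 413 (14-3-3e knockout against WT in M1; members 4 to 1), 267 to 93 (PGRN interaction; members 3 to 1) and 61 to 8 (14-3-3e interaction). With thinned reads, 2756 genes were called for 14-3-3e knockout in M1, 794 in M2 (1427 unthinned), 136 in the PGRN and 28 in the 14-3-3e interaction. The called members of PGRN knockout in M2 went from 5 to 3 with thinned reads and to 8 with voom. The 14-3-3e interaction had 37 called genes with library totals, 15 with voom and 120 without the ribosomal RNA-rich libraries. The cause was not tested.

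Leaving out 1 library at a time gave 2752 to 5662 genes and 3 to 7 members for PGRN knockout against WT in M2, 2272 to 6458 genes and 3 to 7 members for 14-3-3e knockout in M1, and 577 to 3262 genes in M2. It gave 2 to 5 members between the knockouts in M2, 100 to 659 genes and 2 to 5 members for the PGRN interaction, and 9 to 192 genes and 1 to 2 members for the 14-3-3e interaction.

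Log2 differences that changed sign were small. PGRN knockout M1 against M2 had Psph at 0.0244 with voom and -0.137 to 0.0469 without 1 library. The same 14-3-3e knockout contrast had Mthfd2 at -0.18 with library totals and -0.0224 to 0.0866 without 1 library. PGRN knockout against WT in M1 had Psph at 0.10 with voom, 0.10 thinned and -0.18 to 0.18 without 1 library, Shmt2 at 0.0047 thinned and -0.0885 to 0.0584, and Phgdh at -0.300 to 0.0967. 14-3-3e knockout against WT in M1 had Shmt1 at 0.0436 with voom and -0.380 to 0.0358 without 1 library. In M2 it had Mthfd1 at 0.0683 with library totals, Shmt1 at -0.0335 thinned and -0.0529 to 0.103 without 1 library, and Shmt2 at -0.0141 to 0.0348. Shmt1 was at -0.12 to 0.25 between the knockouts in M1 and at -0.41 to 0.0068 in the 14-3-3e interaction without 1 library.

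The labels do not say whether replicate numbers pair the libraries, and the main fit used no pairing. Deviations of same-numbered libraries in different groups correlated at -0.35 to 0.53, above 0.1 in 10 of 45 pairs. Of the 18 libraries, 12 correlated best with their own number. With a replicate block over all groups, 8379 genes were called in WT M1 against M2, and 88 of 88 member values kept their direction and side of the threshold. Only M1 and M2 of 14-3-3e knockout correlated above 0.1 in every replicate number (0.53, 0.40 and 0.43). Single M1 and M2 pairs reached 0.35 in WT (replicate 1) and 0.34 in PGRN knockout (replicate 2). A replicate block within 14-3-3e knockout was added after seeing the data. It changed no member call in the M1 against M2 comparison of that genotype (6215 genes called, 6407 without) or its interaction (74 genes).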
